A study of Mus musculus with 11 samples.

Results

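Of 2828 autosomal peaks in the micrococcal nuclease (MNase) list for GFP-tagged Smchd1 in mouse neural stem cells, 888 lay inside the body of a protein-coding gene and more than 1 kb from every boundary of a coding gene. These 888 peaks were chosen by position alone, from the peak start and end and the RefSeq gene spans of the same build, mm10. Peaks in the 4 Hox clusters, 159 in all, were set apart before this choice. The other autosomal peaks were 425 within 1 kb of a coding gene boundary and 1356 farther than 1 kb from any coding gene. The whole list, with the sex chromosomes, held 2840 peaks.

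The list was named in the labels of 5 MNase libraries from C57BL/6 neural stem cells. The cells had been grown from embryos of embryonic day 14.5 and passaged for up to 20 passages. A male and a female sample were homozygous for the knock-in allele that fuses GFP to Smchd1, and a male and a female sample were wild-type. These 4 libraries were pulled down with an antibody to GFP after formaldehyde cross-linking, so the wild-type libraries show what the antibody brings down without the tag. The fifth library was whole cell extract of female cells. A separate experiment of 6 libraries, all female, used sonication in place of MNase and gave its own list, with 1646 autosomal peaks. Its libraries were 2 of homozygous knock-in cells, 2 of wild-type cells and 2 of whole cell extract. Each genotype and sex of the MNase experiment was represented by 1 library, and the authors gave 1 list for all 5. No value per library, depth or replicate spread therefore stood behind any peak. The labelled cell type could not be checked against markers, since peak positions carry no expression level.

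Smchd1 is a chromatin protein related to the structural maintenance of chromosomes family and is known for its part in gene silencing on the inactive X chromosome, at imprinted loci and at some gene clusters. A gene body holds more than the coding sequence: alternative starts of transcription, starts of antisense and other non-coding RNAs, enhancers and CpG islands can all lie there. In neural stem cells, genes for transcription factors of other tissues are typically kept silent, often with CpG-rich stretches under Polycomb repression.

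Some peaks in gene bodies covered an internal start of transcription. The RefSeq table of start windows, 250 bases before to 50 after each start, held 6445 distinct starts inside coding gene bodies under the same 1 kb rule, and 31 of them, or 0.481%, lay in a peak. These 31 starts belonged to 27 of the 888 peaks (3.04%, 95% Wilson interval 2.10% to 4.39%). In 23 cases the start was one of the host gene itself, and in 8 it was the start of a long non-coding RNA gene. The table is not complete: 482 of the 636 host genes had a window with a strand. The 250 bases before 6 of the 31 starts are printed here, 5′ to 3′ on the strand of the gene. The 6 let the range in CpG content be seen. They were chosen after their values were seen. The letters are those of RefSeq for build GRCm38.p6, every CG is in capitals, and each run lies wholly inside its peak. Pax2, the paired-box gene of kidney and midbrain, is at chr19:44755502-44755751 on the plus strand. Gata3, a zinc finger factor of T cells and sympathetic neurons, is at chr2:9878601-9878850 on the minus strand. Tfap2a, a factor of neural crest and skin, is at chr13:40734921-40735170 on the minus strand. Irx2, an Iroquois homeobox gene, is at chr13:72628570-72628819 on the plus strand. Lrif1, whose product is a known binding partner of Smchd1, is at chr3:106721432-106721681 on the plus strand. Zbtb18, a zinc finger repressor of the developing cortex, is at chr1:177444403-177444652 on the plus strand.
Pax2: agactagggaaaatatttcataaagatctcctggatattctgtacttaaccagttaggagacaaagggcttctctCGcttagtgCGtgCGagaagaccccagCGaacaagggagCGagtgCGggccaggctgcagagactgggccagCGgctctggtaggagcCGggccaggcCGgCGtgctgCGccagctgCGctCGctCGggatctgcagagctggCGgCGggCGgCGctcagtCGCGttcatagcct
Gata3: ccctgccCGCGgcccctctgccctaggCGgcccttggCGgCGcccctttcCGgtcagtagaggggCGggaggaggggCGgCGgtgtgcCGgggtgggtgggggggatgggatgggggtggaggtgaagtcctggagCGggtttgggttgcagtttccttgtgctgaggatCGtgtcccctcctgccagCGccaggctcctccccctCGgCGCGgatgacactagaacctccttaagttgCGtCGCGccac
Tfap2a: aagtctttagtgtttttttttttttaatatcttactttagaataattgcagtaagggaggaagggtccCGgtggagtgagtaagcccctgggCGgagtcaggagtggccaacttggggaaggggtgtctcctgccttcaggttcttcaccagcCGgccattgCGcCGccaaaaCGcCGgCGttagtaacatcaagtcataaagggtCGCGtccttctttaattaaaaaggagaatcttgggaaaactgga
Irx2: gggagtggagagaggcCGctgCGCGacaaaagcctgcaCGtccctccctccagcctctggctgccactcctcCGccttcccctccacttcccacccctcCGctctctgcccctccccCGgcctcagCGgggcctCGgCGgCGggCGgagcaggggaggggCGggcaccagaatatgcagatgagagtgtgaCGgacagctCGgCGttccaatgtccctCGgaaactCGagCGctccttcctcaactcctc
Lrif1: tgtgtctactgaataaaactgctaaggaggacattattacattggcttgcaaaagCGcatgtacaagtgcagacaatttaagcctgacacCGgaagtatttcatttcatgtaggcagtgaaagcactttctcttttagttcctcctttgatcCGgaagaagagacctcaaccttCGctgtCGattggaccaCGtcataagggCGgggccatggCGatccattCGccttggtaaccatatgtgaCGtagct
Zbtb18: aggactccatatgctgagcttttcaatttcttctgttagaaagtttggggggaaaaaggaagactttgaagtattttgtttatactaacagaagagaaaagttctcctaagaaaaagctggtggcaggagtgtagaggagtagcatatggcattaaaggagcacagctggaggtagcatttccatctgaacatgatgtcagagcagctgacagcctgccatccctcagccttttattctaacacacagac
The run before the Pax2 start held 20 CG, that of Gata3 19, that of Irx2 19, those of Tfap2a and Lrif1 10 each and that of Zbtb18 0. Over all 31365 autosomal starts in the table, the median was 6, and 38.3% had at least 10.

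Starts in a peak were richer in CpG than the other internal starts. Over the 300-base windows of the 31 starts in a peak, the median number of CpG was 17 (quartiles 11 and 23.5, range 1 to 43). Over the 6414 internal starts outside a peak it was 6 (quartiles 3 and 14). For starts of coding genes the medians were 19 for 23 in a peak and 8 for 3680 outside, and for starts of long non-coding RNA genes they were 10.5 for 8 and 4 for 2734. Of internal starts with 10 to 19 CpG, 12 of 1023 were in a peak (1.17%, 95% Wilson interval 0.672% to 2.04%), and of those with 20 or more, 13 of 1163 (1.12%, 0.654% to 1.90%). With fewer CpG the shares were 3 of 1675 (0.179%, 0.0609% to 0.525%) for 5 to 9 and 3 of 2584 (0.116%, 0.0395% to 0.341%) for 0 to 4. The intervals of the richer starts did not overlap those of the poorer ones, and those of the 2 richest classes overlapped. Several starts can share a peak, so the starts are not independent, and no test was made.

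**Figure D1:**
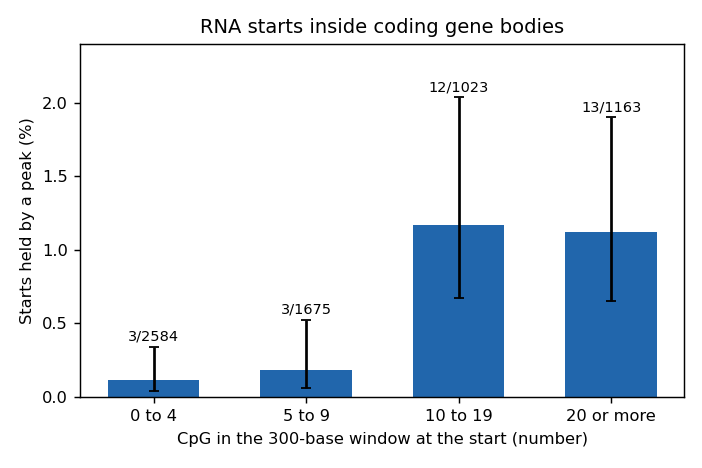
Share of RNA starts inside coding gene bodies that lay in an MNase peak, in percent, by the number of CpG in the 300-base window at the start. Bars are shares with 95% Wilson intervals, and the counts above give starts in a peak over all starts; the classes with 10 or more CpG reached 1.17% and 1.12%, those below stayed at 0.179% and 0.116%.

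Among the internal starts in a peak, the one of Lrif1 had a wide peak. It ran from 106720651 to 106722900 on chromosome 3, 2.25 kb wide and 13.7 kb from the nearer boundary of the gene, and a second peak of 450 bp lay from 106723951 to 106724400. The start of Evx2, a homeobox gene beside the HoxD cluster, was in a peak of 4800 bp with 16 CpG in its window. Stag1, which encodes a cohesin subunit, had the window richest in CpG, with 43, in a peak of 750 bp that lay 45.1 kb from a boundary. Bcl11a, a zinc finger repressor with roles in haemoglobin switching and in the cortex, had 23 CpG in a peak of 600 bp. Non-coding starts in a peak included Six3os1, antisense to the forebrain and eye gene Six3, and Dlx6os2 in the interneuron homeobox gene Dlx6. Apart from Evx2, Bcl11a and Lrif1 these genes were chosen after their values were seen.

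Gene bodies as a whole, with peaks of all widths counted, held peaks at about the density of the space far from coding genes. They held 31.4% of autosomal MNase peaks (95% Wilson interval 29.7% to 33.1%) and 39.2% of the autosomal length, 942 of the measured Mb. The density was 0.943 peaks per Mb inside bodies and 0.978 per Mb far from coding genes, a ratio of 0.964 (95% interval 0.886 to 1.05 from the binomial share). Within 1 kb of gene boundaries it was 5.72 per Mb, which was 6.07 times that of the bodies. Among peaks wider than the smallest width of 300 bp, the ratio of bodies to far space was 1.30, with a lower 95% limit of 1.16. By chromosome, bodies on chromosome 15 had the lowest density, 0.521 per Mb, and those on chromosome 13 the highest, 1.26. Of the 50 peaks behind the chromosome 13 value, 13 lay in the single gene Tfap2a.

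The peaks lay in 636 host genes, and 10 peaks overlapped more than 1 coding gene. A single peak was held by 488 of these genes, 2 by 80, and 3 or more by 68. The median distance to the nearest boundary was 22.0 kb (quartiles 4.05 and 83.5 kb), and the most remote, in Dlg2, was 790 kb away. Peaks 1 to 5 kb from a boundary numbered 258 (29.1%), and 311 (35.0%) were over 50 kb from every boundary. No more than 250 bp beyond the 1 kb limit there were 25 peaks, with a median width of 600 bp, and no more than 250 bp within it there were 33 peaks inside a gene, also with a median of 600 bp. Median widths at both sides of the limit were thus equal. Where the host gene was the only one and its strand was known, 408 of 661 peaks were nearer the 5′ than the 3′ boundary (61.7%, 95% Wilson interval 58.0% to 65.4%). Within 5 kb of the 5′ boundary there were 154 peaks, and within 5 kb of the 3′ boundary 55. Without developmental transcription factor genes, 367 of 605 were nearer the 5′ boundary (60.7%, 56.7% to 64.5%).

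Long genes held a peak more often than short ones. Of 18295 autosomal coding genes over 2 kb, 636 (3.48%) had at least 1 peak in the body. The share was 0.766% (67 of 8748) for genes of 2 to 20 kb, 2.75% (199 of 7235) for 20 to 100 kb, 12.9% (270 of 2096) for 100 to 500 kb and 46.3% (100 of 216) above 500 kb. Per Mb of gene interior the classes were closer, at 1.32, 0.889, 0.938 and 1.07 pairs of a peak and a gene in the same order, a peak in overlapping genes being counted in each. A list of genes is therefore set beside the share that genes of the same lengths gave.

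**Figure D2:**
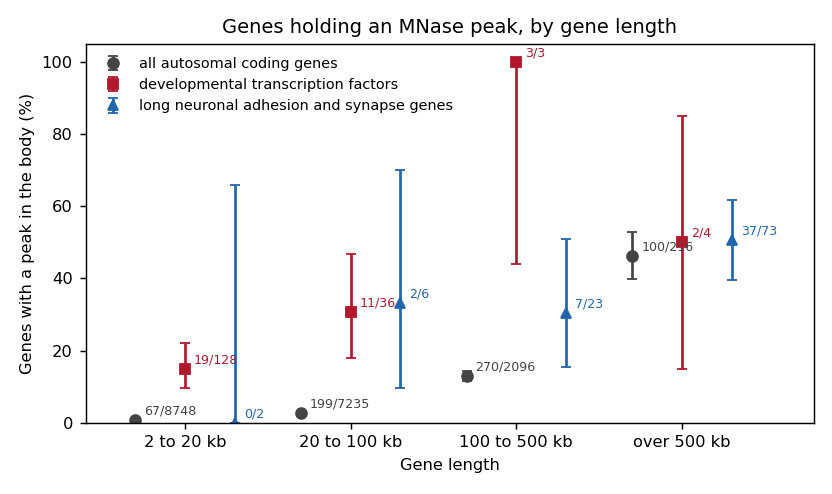
Percent of genes with an MNase peak more than 1 kb inside the body (y axis) in 4 classes of gene length, for all autosomal coding genes, for developmental transcription factors and for long neuronal genes. Points carry 95% Wilson intervals and the count of genes with a peak over all genes; transcription factors of 2 to 20 kb stood at 14.8% where all genes of that length stood at 0.766%, while long neuronal genes above 500 kb stood at 50.7% where all stood at 46.3%.

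Developmental transcription factor genes held peaks in their bodies in a larger share than their length gave. Of 171 such genes over 2 kb, 35 had a peak (20.5%), where genes of the same lengths gave 4.21 (2.46%). In the 2 to 20 kb class, 19 of 128 did (14.8%, 95% Wilson interval 9.71% to 22.0%) and in the 20 to 100 kb class 11 of 36 (30.6%, 18% to 46.9%), both above the shares of all genes of that length, 0.766% and 2.75%. The list was drawn up with results of these data known, so it is not independent evidence, and no test was made. With a limit of 5 kb from boundaries, which leaves little interior in short genes, the count was 12, where length gave 2.91. In the paired-box family, Pax3, Pax2, Pax9, Pax1 and Pax5 held a peak, 5 of 9 measured, where length gave 3.44%. Of 5 Tfap2 genes 3 did (length 2.35%) and of 4 Zic genes 2 (length 1.26%). Of 5 Gata genes 2 did (length 1.96%) and of 6 Irx genes 2 (length 0.766%). In larger families the counts were 2 of 14 Nkx genes (14.3%, length 0.766%) and 2 of 12 Tbx genes (16.7%, length 2.60%). For Sox genes the count was 1 of 16 (6.25%, length 6.71%), and for Fox genes 3 of 38 (7.89%, length 4.06%). None of 8 Lhx genes held a peak, which allows a share of up to 37.5%, and length gave 2.01%. Not all families counted are given here.

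Peaks were numerous and wide in Tfap2a. The gene runs from 40713802 to 40738238 on chromosome 13, and 13 peaks lay in its body between 40716151 and 40735200, the most of any gene. They were 300 to 3150 bp wide and together covered 12.3 kb of a stretch of 19.1 kb. The widest, from 40729351 to 40732500, also overlapped a sonication peak. A further one of 1.65 kb, from 40727551 to 40729200, held the start of the non-coding RNA gene Gm26688. Among all 888 peaks, a peak adjoined the next with no gap 29 times, so the number of peaks in a gene depends on where the list splits a stretch.

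Gata4, a heart and endoderm factor, held 7 peaks of 600 to 1500 bp between 63241051 and 63266250 on chromosome 14. Gata3 held 5, of 450 to 1350 bp, all between 9877501 and 9883950 on chromosome 2. In both Gata genes the peaks kept to one part of the gene.

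Pax3, a gene of neural crest and muscle, held 6 peaks of 450 to 1050 bp, between 78173551 and 78194400 on chromosome 1. Pax2 held 5 of 450 to 900 bp, of which 4 lay 5.75 to 11.4 kb from the 5′ boundary and 1 lay 2.37 kb from the 3′ boundary. Pax9, a gene of thymus and teeth, held 5 of 450 to 900 bp between 56694451 and 56701950 on chromosome 12. Sim1, a factor of the hypothalamus, held 5 of 600 to 1800 bp, the farthest of which began 17.0 kb from the 5′ boundary of a gene of 94.5 kb. Each of these genes had its peaks grouped rather than spread over its whole span, apart from the single distant peak of Pax2. Plag1, a zinc finger factor, held 6 of 450 to 900 bp, 5 of them between 3930451 and 3936300 on chromosome 4.

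**Figure D3:**
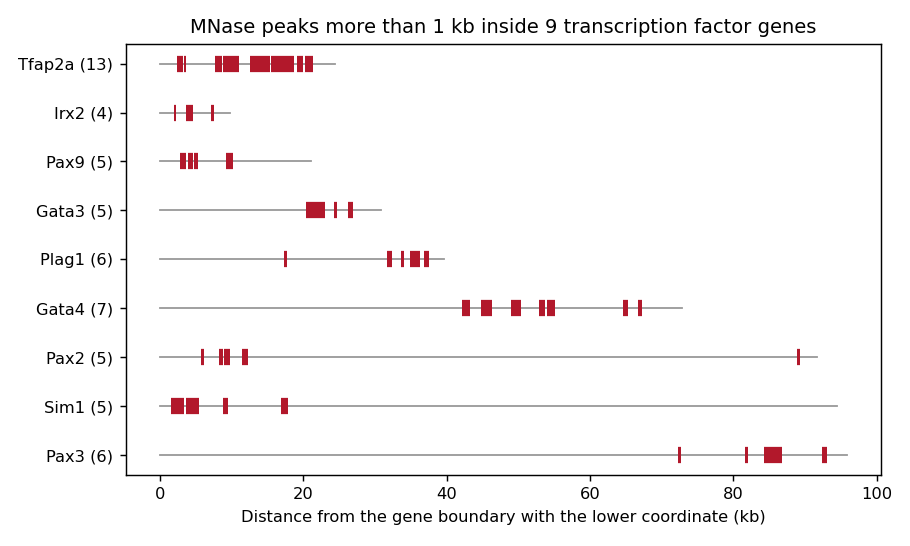
Position of the MNase peaks (red bars, drawn to scale) in 9 transcription factor genes (grey lines), in kb from the gene boundary with the lower coordinate; the number of peaks is in brackets. In Tfap2a the peaks ran over most of the gene, 12.3 kb of it in peaks, and in Sim1 and Pax3 they kept to one end.

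Long genes for neuronal adhesion and synapse proteins held 101 peaks in another layout. Of 104 such genes, 46 held a peak (44.2%), where their length gave 36.9 (35.5%). Above 500 kb 37 of 73 did (50.7%, 95% Wilson interval 39.5% to 61.8%), an interval that includes the 46.3% of all genes that long. These 73 genes are themselves among the 216 genes above 500 kb. The list and its background are thus not independent, which draws the 2 shares together. At 100 to 500 kb 7 of 23 did (30.4%, 15.6% to 50.9%) and at 20 to 100 kb 2 of 6 (33.3%, 9.68% to 70%), both intervals above the 12.9% and 2.75% of all genes. Counting peaks wider than 300 bp only, 23 of these genes held one, where length gave 21.1, and over all coding genes 443 of 18295 did (2.42%). Dlg2, a postsynaptic scaffold gene, held 10 peaks of 300 to 450 bp over 1970 kb, or 0.507 per 100 kb, and 4 of them lay between 91261951 and 91266750 on chromosome 7. Lingo2 held 5, each of 300 bp, and Lsamp, an immunoglobulin-domain adhesion gene, held 4 of up to 450 bp. Tfap2a in comparison had 53.2 peaks per 100 kb.

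The 2 gene groups differed in how wide and how grouped their peaks were. In developmental transcription factor genes, 80 of 89 peaks were wider than 300 bp (89.9%, 95% Wilson interval 81.9% to 94.6%), and in long neuronal genes 37 of 101 were (36.6%, 27.9% to 46.4%); over all 888 peaks 581 were (65.4%). The median width was 600 bp in the first group and 300 bp in the second, and 450 bp over all 888 peaks. Of the 89 peaks, 70 (78.7%) lay within 10 kb of another peak of the group, and of the 101 peaks 17 (16.8%) did. Over all 888 peaks, 219 (24.7%) lay within 10 kb of another. Peaks in a short gene have less room to lie apart, and median gene length was 6.67 kb in the first list and 771 kb in the second. Grouping was not compared with other genes of like length. The nearest boundary was 4.50 kb away at the median in the first group and 232 kb in the second, which follows the length of the genes. These are descriptions of peaks that share genes, with no test.

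Transcription factors with broad neural expression or cofactor roles held a peak in 22 of 60 genes, where length gave 7.86. Zfhx4, a zinc finger homeobox gene, had 4 peaks, and Prdm8, a zinc finger repressor of neuron development, and Bcl11a had 3 each. Axon guidance genes held a peak in 11 of 67, where length gave 7.31, with 3 in the repellent ligand gene Sema3a and 2 each in the receptor genes Epha5, Robo2 and Dcc. Secreted signals of the Wnt, Bmp, Fgf and hedgehog pathways held one in 4 of 68 (length 2.31), namely Fgf9 with 2 and Fgf7, Fgf10 and Bmp5 with 1 each. Of the 31 receptors of these pathways 1 did, the hedgehog receptor Ptch1 (length 1.57). With a boundary limit of 5 kb, 2 signal genes held a peak, where length gave 1.72.

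Glutamate and GABA receptor genes held a peak in 7 of 41 (length 4.91), with 2 each in Gabrb2, Grm5 and Gabra5 and 1 in Gabrb1. Voltage-gated channel genes held one in 6 of 51 (length 6.69), with 2 each in Kcnh7 and Cacna2d1 and 1 each in Kcnd2 and Kcna1. With peaks wider than 300 bp only, 2 channel genes held one, where length gave 4.26. Genes used as marks of neural stem cells held one in 3 of 22 (length 1.37): Nfia with 2, Ptprz1 and Ednrb with 1 each. Of neuron and glia genes 3 of 18 did (length 1.10): Rbfox3 with 3, Slc17a6 and Syt1 with 1 each; with wider peaks only, 1 did (length 0.710). None of 28 housekeeping genes over 2 kb held a peak, which allows a share of up to 10.7%, and length gave 0.393.

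**Figure D4:**
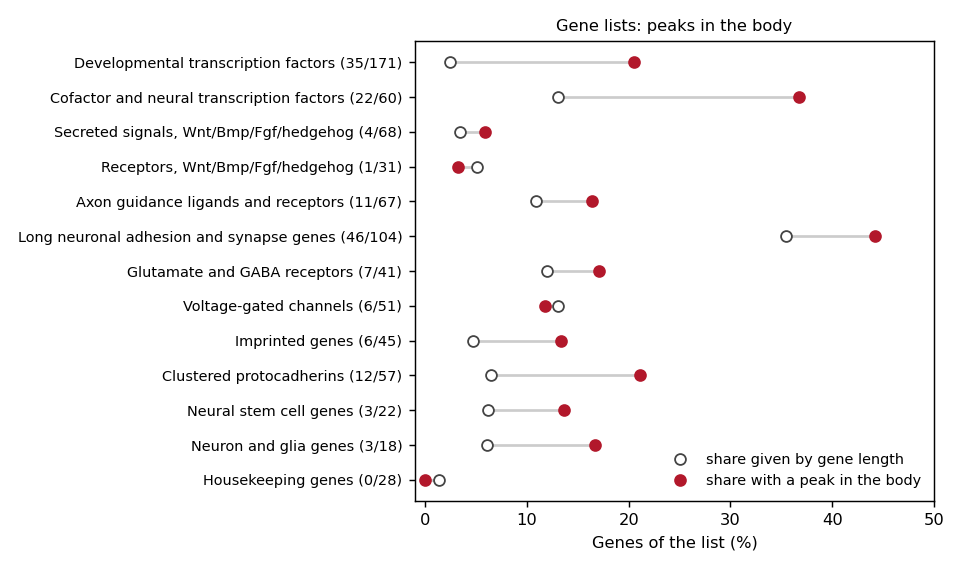
Percent of genes with an MNase peak in the body (filled points) in 13 lists, beside the percent that all coding genes of the same length classes gave (open points); counts of genes with a peak over genes measured are in brackets. The widest gaps were those of the cofactor and neural transcription factors, 36.7% against 13.1%, and of the developmental transcription factors, 20.5% against 2.46%.

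Imprinted genes, silent on either the maternal or the paternal copy, held a peak in 6 of 45 (13.3%), where length gave 2.11. Snrpn, the splicing gene of the Prader-Willi region, held 5 peaks, of which 4 lay between 60383851 and 60392250 on chromosome 7 and the widest, of 1500 bp, lay 205 kb from the nearest boundary. Zdbf2, a paternally expressed gene on chromosome 1, held 4 of 450 to 900 bp between 63267751 and 63275550. Grb10, a growth-restraining adaptor gene, held 1 of 900 bp, from 12025501 to 12026400 on chromosome 11, at 11 kb from its 5′ boundary and 1571 bp from the nearest start in the table. Peg3, Usp29 and Ube3a held 1 each, of 300 to 450 bp; Usp29 and Ube3a were named after their values were seen. Clustered protocadherins, adhesion genes with alternative first exons, counted 12 of 57 genes with a peak (21.1%), where length gave 3.66 (6.43%). Pcdha1 to Pcdha4 were among the 12. These 12 spans overlap and shared 3 distinct peaks, so they are not 12 sites. The read-through models Gm38666 and Gm38667, which span the same region, held 5 each.

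The widest peaks in gene bodies lay in genes both inside and outside these lists. The widest of all, 16.2 kb from 3184051 to 3200250 on chromosome 11, was in Sfi1, a centrosome protein gene. The next widest, in Evx2, was of 4800 bp. The list gives no whole cell extract signal, so background at the Sfi1 peak could not be checked. Without the Sfi1 peak the mean width of the peaks in gene bodies was 528 bp ± 346 (SD over peaks), and with it 546 bp ± 629. Outside the lists, Otp, a homeobox gene of the hypothalamus, held one of 2.10 kb, Tnrc18 one of 1.80 kb, and the zinc finger gene Zfp503 and Tchh, which encodes the hair follicle protein trichohyalin, one of 1500 bp each. Among the developmental transcription factors already counted, Lmx1a, a factor of dopamine neurons, Pax5, a B cell factor, and the nuclear receptor gene Nr2f2 held one of 1.80 kb each, and Irx1 one of 1500 bp. Pcdh17, a protocadherin gene of the long neuronal list, held one of 2.55 kb.

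Beyond the transcription factors, several genes held 5 or more peaks. The gene 4930447C04Rik, also known as Six6os1 and antisense to the eye and pituitary gene Six6, held 9 of 300 to 750 bp in 37.8 kb. Sfmbt2, a Polycomb group gene, held 5 of 450 to 600 bp, all within 5 kb of its 5′ boundary. Lin28b, which blocks let-7 maturation, held 5 of 300 to 750 bp in the 5′ part of the gene. Camta1, a calmodulin-binding transcription activator gene, held 5 of 300 to 1350 bp in a gene of 802 kb, the 3 widest of them between 151154251 and 151180200. Zfp993, a zinc finger gene on chromosome 4, held 5 of 300 to 900 bp, of which 3 also lay in the neighbouring model Zfp981.

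Genes that flank the Hox clusters held some of the groups. Within 500 kb of a cluster there were 16 peaks in gene bodies. Skap1, a T cell adaptor gene next to HoxB, held 10 of 300 to 1050 bp, at 184 to 301 kb from the cluster. Its paralogue Skap2, next to HoxA, held 3 of up to 1500 bp at 154 to 293 kb. The homeobox genes Evx2 and Evx1 held 1 each, 7.97 kb from HoxD and 54.8 kb from HoxA, and Ttll6 held 1 of 300 bp. The Smchd1 gene itself, from 71344489 to 71475366 on chromosome 17, held 0, and the nearest autosomal MNase peak was 793 kb away.

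Few of the peaks were shared with the sonication list. Of the 888 peaks, 6 overlapped a sonication peak (0.676%, 95% Wilson interval 0.310% to 1.47%). They lay in Tfap2a (3150 bp), at 2 places in Snrpn (1500 and 1350 bp), in Grb10 (900 bp), in Kctd16, a subunit gene of GABA-B receptors (600 bp), and in Zfp993 (450 bp). Of boundary peaks 11 of 425 (2.59%) overlapped one, 1.91 percentage points more (95% interval 0.525 to 3.93; Fisher's exact test, two-sided, adjusted p = 0.00957 over 4 comparisons). With 1 peak counted per 10 kb stretch, the difference no longer passed the test (adjusted p = 0.180, Fisher's exact test), and it was also lost with boundaries set at 500 bp or 5 kb, so it is not firm. Of far peaks 9 of 1356 (0.664%) overlapped one, and the difference from gene bodies was 0.012 points (95% interval -0.688 to 0.866; Fisher's exact test, adjusted p = 1).

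Peaks in gene bodies were intermediate in width. Of them, 307 of 888 had the smallest width, 300 bp (34.6%, 95% Wilson interval 31.5% to 37.8%). The share was 16.2% (69 of 425) at gene boundaries, 18.3 percentage points lower (95% interval 13.5 to 22.9; Fisher's exact test, two-sided, adjusted p = 3.94e-12). Far from genes it was 51.4% (697 of 1356), 16.8 points higher, the difference of bodies minus far being -16.8 (95% interval -20.9 to -12.6; Fisher's exact test, adjusted p = 1.39e-14). Both differences passed the test under every alternative run for them. Peaks of 1050 bp or more made up 6.31% in gene bodies, 21.2% at boundaries and 4.50% far from genes. Peaks are not biological replicates and neighbours are not independent, so these p-values describe 1 list and are too small.

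**Figure D5:**
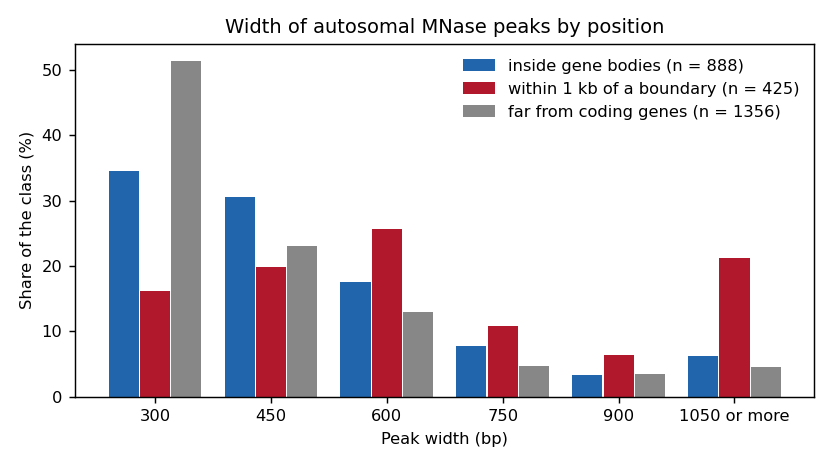
Share of autosomal MNase peaks, in percent of each class, by width in bp, for peaks inside gene bodies, within 1 kb of a coding gene boundary and far from coding genes. Bars start at 0; the smallest width made up 34.6%, 16.2% and 51.4% of the 3 classes in that order.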

How the data were processed

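The authors deposited 1 peak list for the 5 MNase libraries and 1 for the 6 sonication libraries, to which the labels of every library in that experiment point. Each MNase peak is typed as a SeqMonk call in the deposited table. Bowtie 0.12.9, MACS2, bcl2fastq and mm10 appear in the submitters' processing notes, with no step given for any of them. The only deposited values used were peak start and end in bp, a position with no other unit; the value column was empty. Starts lie on a grid of 150 bp and widths are at least 300 bp, so widths carry steps. The sources used here do not say how the control libraries were used in calling. Without depth, the precision of a single peak is unknown. The deposited list of broad domains was not used here. A planned count test of knock-in against wild-type was not made, since the lists used give no counts per library. Exons, introns and the sequence of whole peaks were not analysed, since no genome was used; CpG was counted only in RefSeq windows at starts.

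Coding genes (20560 on 19 autosomes) came from a RefSeq table for GRCm38.p6, the assembly of mm10, after 328 records that fall within the initial 3 Mb of an autosome were left out. RNA starts and strands came from RefSeq promoter windows; chromosome 18 starts were not used here. Shares carry 95% Wilson intervals, which cover counting error only; the limit for a count of 0 is 3 counts. Classes were compared with Fisher's exact test, two-sided, with Benjamini-Hochberg adjustment over 4 comparisons and a threshold of 0.05. The count that length gives is the sum, over a list's genes, of the share of all genes of the same length class with a peak. The 888 peaks and the 13 gene lists were chosen with earlier results of these data known.

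Genes were named by a rule: those at the 20 widest peaks, the 20 with the most peaks (ties by peaks per kb), up to 4 of each list, those at peaks shared with sonication, and Smchd1; a predicted gene gave way to another coding gene at the same peak. Internal starts, families and Hox flanks were chosen later, with their values known. Some genes that the rule names are not reported here. Alternatives were boundary limits of 500 bp and 5 kb, wider peaks only, peaks wholly inside genes, predicted genes left out, peaks merged into stretches and other overlap limits. The rule that places peaks was tested on simulated data, 600 peaks on chromosome 19, of which 0 were placed otherwise than by a direct search. Analyses used Python 3.11.15 with pandas 2.3.3, numpy 2.4.6, scipy 1.17.1 and matplotlib 3.10.9.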

Additional observations from a re-analysis of the deposited data

How the results depend on the processing

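The share of autosomal MNase peaks in gene bodies was 33.5% with boundaries set at 500 bp, 22.3% at 5 kb and 33.2% among peaks wider than 300 bp. The ratio of body to far density was 0.855 at 5 kb and 1.30 among wider peaks, so it moved to the other side of 1. The percent of coding genes with a peak was 2.53% at 5 kb and 2.42% with wider peaks only. Developmental transcription factor genes with a peak numbered 12 at 5 kb, where length gave 2.91, and 33 with peaks at annotated starts left out, an alternative chosen after seeing the data. Long neuronal genes with a peak numbered 23 among wider peaks, where length gave 21.1. Of shorter lists, voltage-gated channels counted 2 and neuron and glia genes 1 with wider peaks, and secreted signals 2 at 5 kb. The lower overlap with sonication peaks in bodies than at boundaries failed the test at 500 bp (-1.48 points, Fisher's exact test, adjusted p = 0.0699), at 5 kb (-0.41), with wider peaks (-1.78), with 1 peak per stretch of 10 kb (-1.12) or 100 kb (-1.22), and where 50% of the MNase peak had to be covered (-1.32); it passed with a sonication peak within 1 kb (-2.53). Alternatives with fewer peaks have less to test. The difference in sonication overlap from far peaks, which passed no test, was -0.181 with wider peaks and -0.0403 with 1 peak per 10 kb stretch. Of 133 alternative values, 115 kept their call or size, and no difference that passed a test changed sign. The values for peaks wholly inside genes are among the 115 and could not change. A peak that overlaps a gene more than 1 kb from every boundary always lies wholly inside it. No paired analysis was possible because each experiment has 1 list for all its libraries, and for the same reason no replicate could be left out. The depth behind the peaks is unknown.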

Other observations

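Zinc finger genes named Zfp held a peak in the body in 14 of 388 cases (3.61%, 95% Wilson interval 2.16% to 5.96%), where their length gave 2.34%. The 14 genes held 19 distinct peaks. None of 149 olfactory receptor genes over 2 kb held one, which allows a share of up to 2.01%, and length gave 0.899%. These families were chosen after the data were seen.

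Long non-coding RNA genes overlapped 71 of the 888 peaks (8%). The share of gene interiors that such genes cover was not measured, so this percent has no background to set it against. Peaks that held an annotated start had a median width of 600 bp, and the other peaks in gene bodies had one of 450 bp.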
